A study of Mus musculus with 9 samples.

Results

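The genes described here carry glucose through glycolysis or respond to low oxygen. The set holds 34 gene symbols in 5 classes: 3 transporters for glucose uptake and lactate export, 15 glycolytic enzymes, 3 regulators of glycolytic flux, 4 regulators of the hypoxia-inducible factors (Hif) and 9 other known Hif targets. Members were taken by symbol from the annotation of an Affymetrix mouse expression array, and 30 of the 34 were measured among 18193 genes in all. Gpi1 and Eno1 were not analysed here. Gapdh was read only through 3 control probe sets, since its 3 other probe sets are shared with other genes, and Bnip3l gets no value because its 3 probe sets are shared with another gene.

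RNA came from mouse embryos at embryonic day 16.5, with 3 arrays from the condyle of the temporomandibular joint (the head of the lower jaw), 3 from the fossa (its socket on the skull) and 3 from the whole body. The labels give the same laser capture protocol for all 9 samples, and strain, genotype and sex are not given in the sources used here. Samples are called biological triplicates, but the embryo behind each one is not given, so each p-value reflects only the spread among the arrays, which may be technical. The condyle and fossa comparisons with whole body share the whole body arrays.

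Glycolysis breaks glucose down to pyruvate in the cytosol, and lactate dehydrogenase can turn that pyruvate into lactate without using oxygen. When oxygen is plentiful, prolyl hydroxylases of the Egln family mark the Hif alpha proteins for destruction; when it is scarce, Hif accumulates, binds DNA with its partner Arnt and raises transcription of many glycolytic genes. Cartilage has no blood vessels, and growth plate chondrocytes of the mouse need Hif1a to survive. The arrays measured RNA only, and neither oxygen nor Hif protein was measured.

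Most cartilage markers fitted the labelled joint tissues, but markers of other cells were present too. Mean log2 intensity over 15 cartilage genes was 7.62 to 8.50 on condyle arrays, 7.15 to 8.56 on fossa arrays and 4.83 to 5.06 on whole body arrays. By group mean, 15 of these genes exceeded whole body in condyle and 13 in fossa. The exceptions in fossa were Sox5 and Sox9. Sox9 stood at 3.06, 3.94 and 3.27 in fossa, 5.36 to 6.42 in condyle and 3.74 to 3.82 in whole body. For 11 liver genes the ranges were 3.54 to 3.93 in condyle, 2.72 to 3.95 in fossa and 10.61 to 10.98 in whole body. Over 12 epithelial genes, however, the means were 7.58, 8.63 and 7.92 on the condyle arrays, 8.01, 4.64 and 7.85 on the fossa arrays, and 7.06, 7.03 and 7.01 on the whole body arrays, so epithelial genes were also detected in the joint samples, least on fossa array 2. Means over 8 bone genes were 9.21, 6.84 and 7.16 on the condyle arrays, 7.80, 9.51 and 8.99 on the fossa arrays and 6.11 to 6.25 on the whole body arrays. The median condyle minus fossa difference of the bone genes was -1.07, and -1.36 after scaling all arrays to one distribution; the part of bone cells in the condyle and fossa differences below was not tested. In samples of mixed tissue like these, fewer cells of a type and less RNA per cell cannot be told apart. The share of probe sets above background ranged from 30.3% on fossa array 1 to 46.9% on condyle array 3.

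Sequence just upstream of the members was examined first, because Hif binds a short core motif in its target genes. RefSeq (build GRCm38.p6) gave windows of 300 bases, running from 250 before to 50 after an annotated start, for 30 of the 34 members (46 windows). The core was searched as ACGTG and GCGTG and, on the other strand, CACGT and CACGC. The palindrome CACGTG, which other factors also bind, holds the core on both strands and counts as 2 matches. A match was found for 28 of the 30 members (93.3%), against 46.7% of all genes. Member windows were also richer in G and C, with a median of 62.2% against 52.7%; among windows with at least 55% G and C, 32 of 37 member windows (86.5%) held a match, against 63.8% of all such windows. The set was chosen in part as known Hif targets, so an excess of the Hif core is no result of these arrays. The 55% limit is only a minimum, so G and C content may still differ between the windows compared. These matches describe letters, not bound sites. Windows are printed for the members whose differences passed the test under every setting tried in at least 1 comparison; where a gene has several windows, the one with most matches is shown, and capitals mark the core.
Pkm, chr9:59656977-59657276, plus strand: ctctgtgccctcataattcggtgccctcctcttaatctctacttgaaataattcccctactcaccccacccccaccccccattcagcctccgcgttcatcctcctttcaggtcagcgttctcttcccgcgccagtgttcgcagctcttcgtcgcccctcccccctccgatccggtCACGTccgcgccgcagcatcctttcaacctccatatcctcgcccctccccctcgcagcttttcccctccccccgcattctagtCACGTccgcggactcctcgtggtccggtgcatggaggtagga
Ldha, chr7:46845554-46845853, plus strand: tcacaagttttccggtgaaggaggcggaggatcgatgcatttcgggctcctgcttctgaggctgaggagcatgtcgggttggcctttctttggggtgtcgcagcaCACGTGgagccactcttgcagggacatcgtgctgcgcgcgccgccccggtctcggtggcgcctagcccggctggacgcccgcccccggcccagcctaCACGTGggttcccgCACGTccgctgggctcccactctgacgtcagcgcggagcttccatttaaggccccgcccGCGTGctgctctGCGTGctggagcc
Pgam1, chr19:41911621-41911920, plus strand: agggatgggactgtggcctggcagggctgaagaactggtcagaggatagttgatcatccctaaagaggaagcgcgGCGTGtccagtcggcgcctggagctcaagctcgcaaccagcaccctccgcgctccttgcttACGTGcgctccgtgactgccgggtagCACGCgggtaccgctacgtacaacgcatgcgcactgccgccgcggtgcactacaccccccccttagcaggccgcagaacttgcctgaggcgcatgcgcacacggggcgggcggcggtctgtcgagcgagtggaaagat
Aldoa, chr7:126799129-126799428, minus strand: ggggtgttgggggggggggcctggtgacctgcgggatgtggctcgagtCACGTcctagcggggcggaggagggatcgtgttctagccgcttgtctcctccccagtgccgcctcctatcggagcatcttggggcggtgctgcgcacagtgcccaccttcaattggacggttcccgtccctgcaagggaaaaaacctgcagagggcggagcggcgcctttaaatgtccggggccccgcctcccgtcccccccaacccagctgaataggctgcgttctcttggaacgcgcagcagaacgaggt
Hk2, chr6:82774405-82774704, minus strand: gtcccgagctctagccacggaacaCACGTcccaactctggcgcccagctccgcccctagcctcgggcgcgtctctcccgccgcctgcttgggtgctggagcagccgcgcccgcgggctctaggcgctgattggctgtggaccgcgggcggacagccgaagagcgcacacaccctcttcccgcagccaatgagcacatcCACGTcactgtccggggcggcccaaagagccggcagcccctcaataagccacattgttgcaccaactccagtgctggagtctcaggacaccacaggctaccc
Ddit4, chr10:59951721-59952020, minus strand: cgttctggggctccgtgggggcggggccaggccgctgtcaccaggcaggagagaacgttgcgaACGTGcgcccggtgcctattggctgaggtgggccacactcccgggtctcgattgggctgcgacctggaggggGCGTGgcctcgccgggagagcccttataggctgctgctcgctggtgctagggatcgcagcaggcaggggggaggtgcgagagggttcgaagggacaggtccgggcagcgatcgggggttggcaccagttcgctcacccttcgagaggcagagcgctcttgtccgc
Bnip3, chr7:138909457-138909756, minus strand: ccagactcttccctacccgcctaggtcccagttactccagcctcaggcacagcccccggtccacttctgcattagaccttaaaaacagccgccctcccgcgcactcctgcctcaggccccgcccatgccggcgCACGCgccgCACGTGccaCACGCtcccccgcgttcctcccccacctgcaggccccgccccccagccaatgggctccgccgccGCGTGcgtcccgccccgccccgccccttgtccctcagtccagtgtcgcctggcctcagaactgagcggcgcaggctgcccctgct
Ldha held 7 core matches, including 2 copies of CACGTG, the Bnip3 window 5 (1 copy of CACGTG), and the Pgam1 window 3. Pkm, Hk2 and Ddit4 had 2 each, and Aldoa had 1.

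Among the 30 members, 20 (66.7%) differed somewhere among the 3 groups by limma's moderated F test at a Benjamini-Hochberg adjusted p under 0.05, the threshold for every call, against 28.1% of all genes. On 22 members the signal was above background on all 9 arrays; the background limit was the highest signal among 27 bacterial control probe sets. Levels below are log2 intensities as deposited and cannot be ranked between genes, because probes differ in brightness.

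In condyle, 11 of the 30 members were higher than in whole body and 0 were lower, where 9.34% of all genes were higher and 3.84% lower. Of the 12 glycolytic enzymes measured, 7 were higher, with a median log2 difference of 1.27. The other 18 members had 4 higher and a median of 0.12, and the median over all genes was -0.03. In fossa the same arrays of whole body gave 5 members higher and 7 lower, where 3.99% of all genes were higher and 15.6% lower. There, 2 glycolytic enzymes were higher and 2 lower (median -0.20), against 3 higher and 5 lower among the other members (median -0.27) and a median of -0.11 over all genes. Between the joint tissues, 15 members were higher in condyle than in fossa and 0 were lower, where 16.8% of all genes were higher and 2.13% lower. The glycolytic enzymes accounted for 8 of these 15, with a median of 1.17, beside 0.59 for the other members and 0.21 for all genes. All condyle arrays lay above all whole body arrays for 15 of the 30 members and below them for 0, where 19.8% of all genes lay above and 33.4% below. Fossa lay wholly above whole body for 7 members and wholly below for 8 (11.1% and 31.1% of all genes), and condyle lay wholly above fossa for 16 and wholly below for 1 (33.9% and 15.8%).

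**Figure D1:**
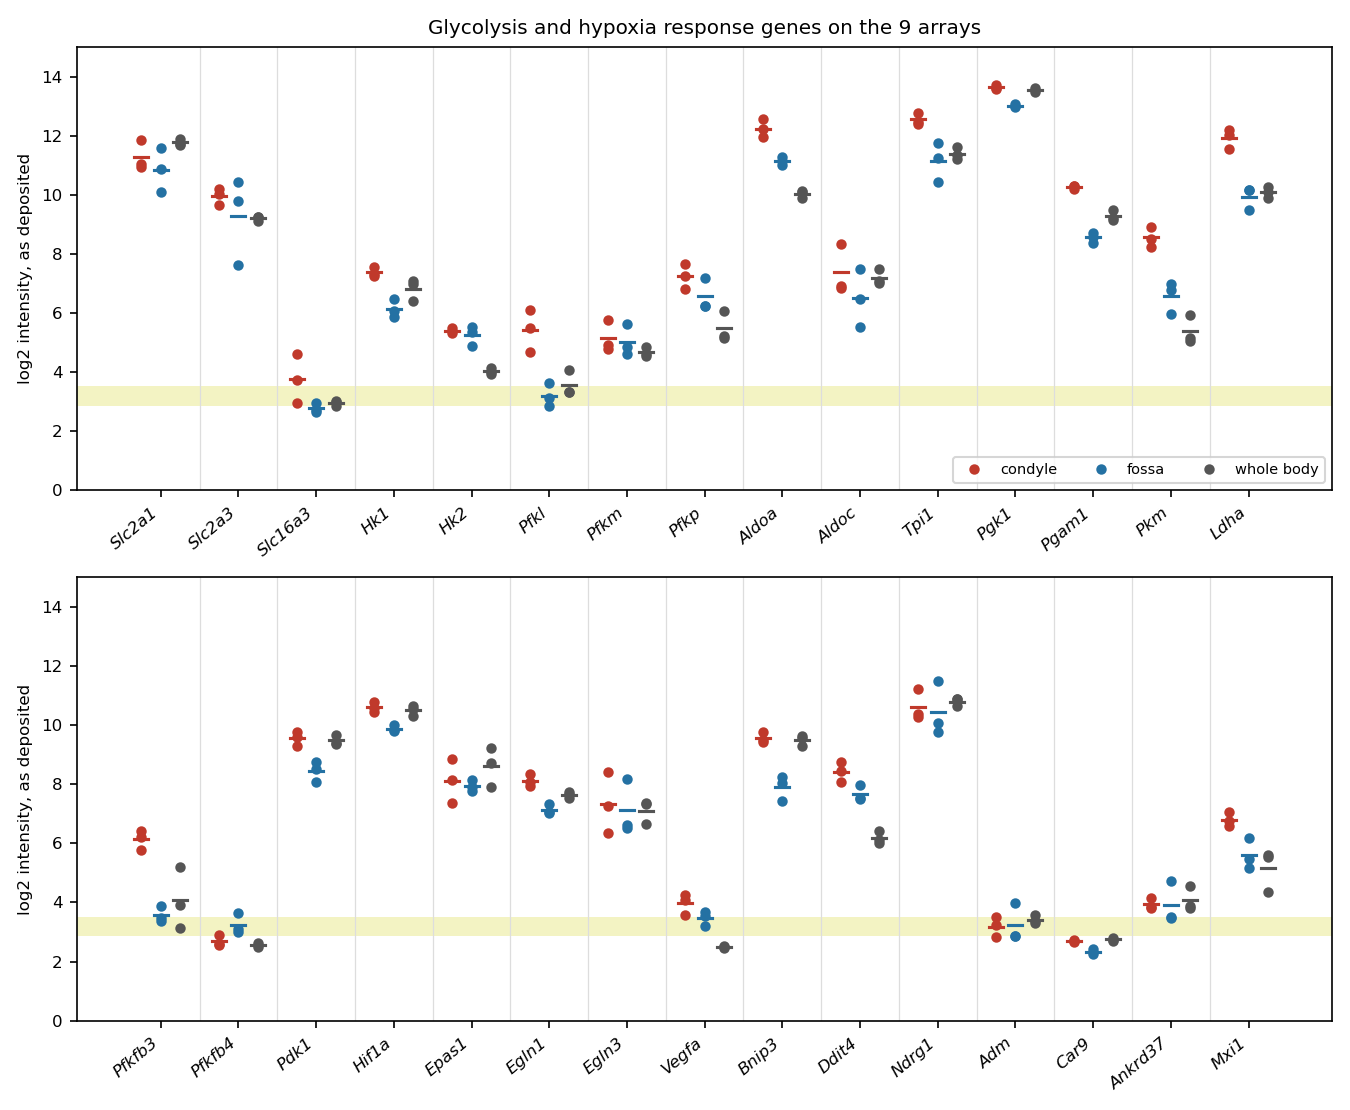
Log2 intensity as deposited (vertical axis) of the 30 measured members on each of the 9 arrays. Points are arrays, short bars are means of 3 arrays, and the yellow band spans the background limits of the arrays, 2.87 to 3.52. Pkm, Aldoa, Ldha and Pgam1 lie higher on every condyle array than on any fossa or whole body array, while Car9 lies under the limit of every array.

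Pkm, Ldha and Pgam1 were higher in condyle than in both other groups as deposited. Pkm, the pyruvate kinase gene that makes pyruvate, had log2 intensities of 8.24, 8.52 and 8.92 in condyle, 5.98, 6.79 and 6.99 in fossa, and 5.92, 5.06 and 5.15 in whole body. No condyle array overlapped either of the other groups, and fossa array 1 lay only just above whole body array 1. Pkm was 9.09-fold higher in condyle than in whole body (log2 3.18 ± 0.35 SE, adjusted p = 0.00245, n = 3 arrays per group) and 3.92-fold higher in condyle than in fossa (1.97 ± 0.35, adjusted p = 0.0108). After quantile normalization, which gives all arrays one common distribution of values, the call between condyle and fossa was lost (1.33, adjusted p = 0.1). Its difference between fossa and whole body, 1.21 ± 0.35, just missed the threshold (adjusted p = 0.0503), and passed it under 10 of 20 alternative settings, among them quantile normalization (adjusted p = 0.0409) and leaving out fossa array 1 or whole body array 1.

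Ldha, which makes lactate from pyruvate, stood at 12.18, 12.03 and 11.55 in condyle, 9.50, 10.15 and 10.16 in fossa, and 10.28, 10.11 and 9.88 in whole body. Condyle lay above both other groups, which overlapped each other. The difference was 1.83 ± 0.24 for condyle over whole body (3.56-fold, adjusted p = 0.00446) and 1.98 ± 0.24 for condyle over fossa (3.95-fold, adjusted p = 0.00306). Fossa minus whole body was -0.15 ± 0.24 (adjusted p = 0.702).

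Pgam1, the phosphoglycerate mutase of most tissues, was the one member that passed the test in opposite directions in the joint tissues against whole body. Its levels were 10.19, 10.29 and 10.29 in condyle, 8.38, 8.72 and 8.57 in fossa, and 9.47, 9.14 and 9.21 in whole body. The 3 groups did not overlap, with condyle at the top and fossa at the bottom. Pgam1 was 1.98-fold higher in condyle than in whole body (0.98 ± 0.12, adjusted p = 0.00346), while fossa minus whole body was -0.72 ± 0.12 (1.64-fold lower, adjusted p = 0.00707). Condyle exceeded fossa 3.25-fold (1.70 ± 0.12, adjusted p = 0.000573). After quantile normalization, the fossa difference from whole body was -0.15 (adjusted p = 0.4).

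Among the middle steps, Aldoa, the aldolase that splits the sugar into 3-carbon units, was higher in both joint tissues. It read 12.56, 11.94 and 12.22 in condyle, 11.00, 11.15 and 11.29 in fossa, and 10.08, 9.90 and 10.14 in whole body. The groups formed 3 separate steps. Aldoa was 4.59-fold higher in condyle than in whole body (2.20 ± 0.16, adjusted p = 0.000536), 2.15-fold higher in fossa than in whole body (1.10 ± 0.16, adjusted p = 0.00471) and 2.14-fold higher in condyle than in fossa (1.10 ± 0.16, adjusted p = 0.00632). All 5 of its probe sets were higher in condyle than in whole body, by 1.03 to 2.95. The last of these contrasts fell to 0.52 (adjusted p = 0.138) after quantile normalization.

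Tpi1, the isomerase that makes both products of that split usable, measured 12.47, 12.77 and 12.41 in condyle, 10.44, 11.75 and 11.23 in fossa, and 11.62, 11.33 and 11.20 in whole body. Condyle lay above both, and fossa straddled whole body. Condyle exceeded fossa by 1.41 ± 0.31 (adjusted p = 0.0234), with all 3 of its probe sets between 1.36 and 1.43; the call was lost without any 1 condyle array or fossa array 3 (adjusted p up to 0.0711) and after quantile normalization (0.85, adjusted p = 0.158). Condyle exceeded whole body by 1.17 ± 0.31 without passing the test (adjusted p = 0.0533), and did pass it without fossa array 1 or 2 (lowest adjusted p = 0.0124); its other 2 probe sets passed as deposited (1.73, adjusted p = 0.0123, and 1.08, adjusted p = 0.0351, over all probe sets). Pgk1, the kinase that makes the first ATP of the pathway, had 13.59, 13.73 and 13.60 in condyle, 12.97, 13.00 and 13.06 in fossa, and 13.47, 13.53 and 13.63 in whole body on its brightest probe set. There only fossa stood apart. Pgk1 was lower in fossa than in whole body by the fit (-0.53 ± 0.07, adjusted p = 0.00311) and higher in condyle than in fossa (0.63 ± 0.07, adjusted p = 0.00242), but both differences were near 0 after quantile normalization (-0.03 and 0.18) and neither passed there. All 3 of its probe sets were higher in condyle than in fossa as deposited, by 0.63 to 1.40. On one dimmer probe set the condyle arrays (12.91, 12.65 and 12.47) also lay above the whole body arrays (12.14, 12.06 and 12.11), without passing the test (adjusted p = 0.0559), and its condyle minus fossa difference passed after quantile normalization (0.86, adjusted p = 0.0128 over all probe sets).

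Gapdh, which oxidises the 3-carbon sugar, was higher in condyle than in whole body on all 3 of its control probe sets as deposited. Its differences involving fossa varied among them. At the 3 prime end it read 12.44, 12.42 and 12.44 in condyle, 10.36, 10.83 and 11.23 in fossa, and 10.68, 10.34 and 9.77 in whole body. Condyle stood apart there, by 2.17 from whole body (adjusted p = 0.00747 over all probe sets) and by 1.63 from fossa (adjusted p = 0.0107). At the 5 prime end condyle exceeded whole body by 2.08 (adjusted p = 0.035) and fossa exceeded whole body by 1.73 (adjusted p = 0.0326), whereas condyle minus fossa was 0.35 (adjusted p = 0.628). The probe set between them gave 2.34 for condyle over whole body (adjusted p = 0.0236) and 1.42 for condyle over fossa (adjusted p = 0.0643). After quantile normalization, condyle no longer passed against whole body at the 5 prime end (1.65, adjusted p = 0.121) or on the middle probe set (1.90, adjusted p = 0.0628). At the 3 prime end condyle still passed against whole body (2.16, adjusted p = 0.00868) and against fossa (1.05, adjusted p = 0.0483). Fossa then passed against whole body at the 3 prime end (1.11, adjusted p = 0.0307) and the 5 prime end (2.02, adjusted p = 0.0281). The gap between the ends, a sign of RNA integrity and labelling, was 5.33 to 6.86 in condyle, 3.69 to 5.31 in fossa and 5.34 to 6.52 in whole body, and its part in the differences of the other members was not tested.

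The first, committing steps use several isoforms. Hk2, the inducible hexokinase that traps glucose in the cell, had 5.31, 5.51 and 5.38 in condyle, 5.52, 4.88 and 5.35 in fossa, and between 3.93 and 4.14 in whole body. Both joint tissues lay above whole body and overlapped each other. Hk2 was 2.59-fold higher in condyle (1.38 ± 0.16, adjusted p = 0.00319) and 2.34-fold higher in fossa (1.22 ± 0.16, adjusted p = 0.00313) than in whole body; condyle minus fossa was 0.15 ± 0.16 (adjusted p = 0.58). Hk1, the more widespread hexokinase, showed another pattern, at 7.27, 7.31 and 7.57 in condyle, 5.86, 6.49 and 6.06 in fossa, and 7.07, 6.98 and 6.41 in whole body. It was higher in condyle than in fossa (1.24 ± 0.22, adjusted p = 0.0118), but 0.56 after quantile normalization (adjusted p = 0.245), and neither tissue passed the test against whole body; fossa did, as lower, without fossa array 2 or whole body array 3 (lowest adjusted p = 0.0313).

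Phosphofructokinase, the main control point of the pathway, is built from liver, platelet and muscle type subunits. The liver type, Pfkl, had 4.68, 6.09 and 5.51 in condyle, 2.85, 3.63 and 3.14 in fossa, and 3.34, 3.32 and 4.07 in whole body. Condyle lay above both groups, and fossa array 1 was under its background limit. Pfkl was 3.60-fold higher in condyle than in whole body (1.85 ± 0.40, adjusted p = 0.0263) and at least 3.99-fold higher than in fossa (adjusted p = 0.0118). The call against whole body was lost without condyle array 2 or 3 or whole body array 1 or 2 (adjusted p up to 0.0826), and the call against fossa after quantile normalization (1.71, adjusted p = 0.0598). A dimmer Pfkl probe set, with signal above background on 2 condyle and 3 fossa arrays, had a condyle minus fossa difference of 0.02 (adjusted p = 0.99 over all probe sets). Pfkp, the platelet type, was also higher in condyle than in whole body (1.76 ± 0.38, adjusted p = 0.0252), at 7.24, 6.83 and 7.67 in condyle, 6.25, 7.20 and 6.25 in fossa, and 5.15, 6.08 and 5.22 in whole body. Fossa lay between the others and overlapped condyle on array 2. That call was lost without condyle array 1 or 3 or whole body array 1 or 3 (adjusted p up to 0.0781), and after quantile normalization neither Pfkl (1.55, adjusted p = 0.0654) nor Pfkp (1.34, adjusted p = 0.0741) passed against whole body. Fossa minus whole body for Pfkp missed the threshold as deposited (1.08 ± 0.38, adjusted p = 0.0901) and passed after quantile normalization (1.35, adjusted p = 0.0488).

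Pfkm, the muscle type, did not pass in any comparison (4.80 to 5.78 in condyle, 4.63 to 5.62 in fossa, 4.55 to 4.85 in whole body). Its highest arrays, condyle 3 and fossa 2, also had the highest means of 12 skeletal muscle genes in their tissues (6.81 and 6.93), but whole body had higher muscle means still (7.24 to 7.45), and the part of muscle was not tested. Aldoc, an aldolase best known from brain, did not pass either, at 6.86 to 8.35 in condyle, 5.54 to 7.48 in fossa and 7.01 to 7.50 in whole body.

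**Figure D2:**
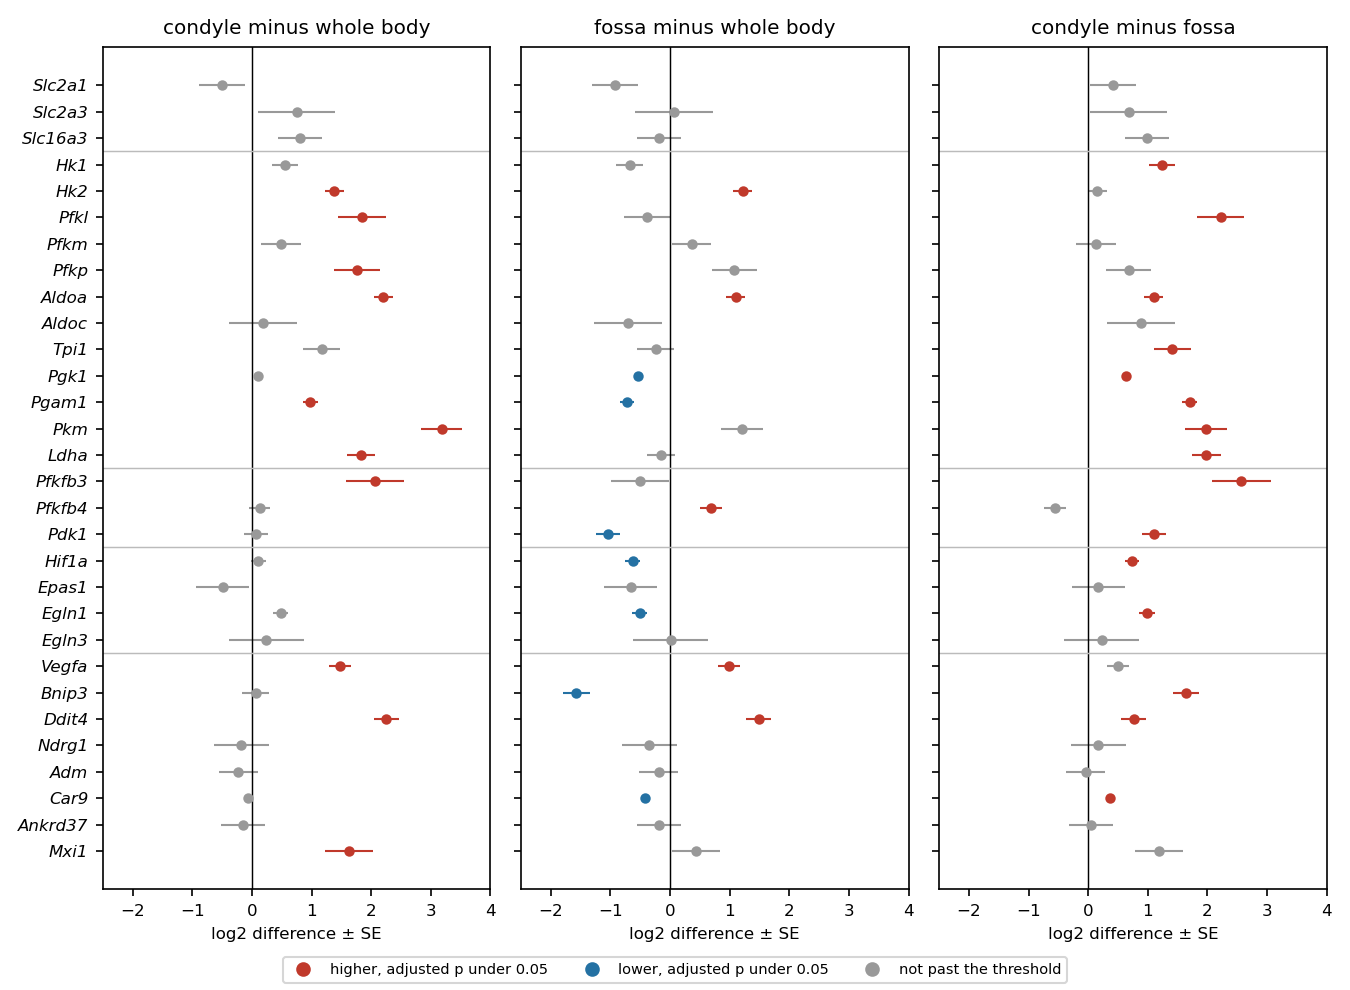
Log2 difference (horizontal axis) with its standard error for each measured member in the 3 comparisons, in blocks by role: transporters, glycolytic enzymes, flux regulators, Hif regulators and other Hif targets. Red and blue mark an adjusted p under 0.05; most glycolytic enzymes lie right of 0 in both condyle panels, and the coloured Car9 points come from signal under background on all arrays.

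None of the 3 transporters passed the test in any comparison. Slc2a1, the basal glucose transporter, had 10.93, 11.86 and 11.04 in condyle, 11.57, 10.10 and 10.89 in fossa, and 11.69, 11.72 and 11.90 in whole body, so the fossa arrays lay below whole body (-0.92 ± 0.39, adjusted p = 0.152) and condyle overlapped both. Slc2a3, a high-affinity glucose transporter, had 9.64, 10.04 and 10.21 in condyle, 9.78, 7.63 and 10.44 in fossa, and 9.12, 9.26 and 9.26 in whole body. Fossa array 2 was far below the other fossa arrays. Slc16a3, which exports lactate, was over the background limit on every condyle array (3.72, 4.63 and 2.97), on 1 fossa array and on no whole body array; condyle passed against whole body (adjusted p = 0.044) and against fossa (adjusted p = 0.0249) only without condyle array 3.

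Each of the 3 flux regulators had a pattern of its own. Pfkfb3, which makes an activator of phosphofructokinase, had 6.21, 5.78 and 6.43 in condyle, 3.46, 3.39 and 3.88 in fossa, and 3.12, 5.19 and 3.93 in whole body. Condyle lay above every other array, and whole body was widely spread. Condyle was at least 5.84-fold above fossa (adjusted p = 0.0142), a call kept without each of the 9 arrays in turn but lost after quantile normalization (1.91, adjusted p = 0.0954). The 4.17-fold difference between condyle and whole body (2.06 ± 0.49, adjusted p = 0.0356) was less firm: leaving out any 1 array other than whole body array 2 ended the call (adjusted p up to 0.107). Quantile normalization ended it too (1.71, adjusted p = 0.107). A dimmer Pfkfb3 probe set, above background only on 2 whole body arrays, was lower on all condyle arrays than in whole body. Its difference of -0.89 did not pass (adjusted p = 0.136 over all probe sets).

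Pdk1, a kinase that blocks entry of pyruvate into the mitochondrial cycle, had 9.75, 9.59 and 9.31 in condyle, 8.52, 8.76 and 8.06 in fossa, and 9.36, 9.68 and 9.41 in whole body. Condyle and whole body overlapped, and fossa lay below both, by -1.04 ± 0.20 from whole body (adjusted p = 0.0128) and with condyle 1.11 ± 0.20 above it (adjusted p = 0.0122). Neither passed after quantile normalization (-0.48, adjusted p = 0.138, and 0.47, adjusted p = 0.222). Pfkfb4, a relative of Pfkfb3, was above background on the fossa arrays alone (3.65, 2.99 and 3.10) and at least 1.04-fold higher there than in whole body (adjusted p = 0.0357), a call lost without condyle array 1 or 3, fossa array 3 or any whole body array (adjusted p up to 0.0899).

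None of the 4 Hif regulators passed the test between condyle and whole body. Hif1a, the oxygen-regulated subunit, had 10.59, 10.77 and 10.46 in condyle, 9.99, 9.84 and 9.79 in fossa, and 10.54, 10.64 and 10.31 in whole body. Condyle and whole body overlapped closely (0.11 ± 0.12, adjusted p = 0.546), and fossa lay below both. Fossa minus whole body was -0.63 ± 0.12 (adjusted p = 0.0126) and condyle minus fossa 0.74 ± 0.12 (adjusted p = 0.00873), but quantile normalization left -0.04 and 0.10, and neither passed. Egln1, the main prolyl hydroxylase acting on Hif1a, had 7.95, 8.07 and 8.33 in condyle, 7.01, 7.33 and 7.05 in fossa, and 7.67, 7.73 and 7.52 in whole body. The groups did not overlap. Condyle exceeded fossa 1.99-fold (0.99 ± 0.13, adjusted p = 0.00421), or by 0.32 after quantile normalization (adjusted p = 0.277). Fossa minus whole body was -0.51 ± 0.13 (adjusted p = 0.0346), lost without condyle array 2, fossa array 1 or 3 or whole body array 1 or 2 (adjusted p up to 0.105) and after quantile normalization (-0.07, adjusted p = 0.781); condyle minus whole body, 0.48 ± 0.13, missed the threshold (adjusted p = 0.055) but passed without fossa array 2 (adjusted p = 0.0474). The dimmer Egln1 probe set passed after quantile normalization in condyle minus fossa (0.85, adjusted p = 0.0174) and fossa minus whole body (-0.98, adjusted p = 0.00834, over all probe sets). Epas1, the Hif alpha subunit prominent in endothelium, and Egln3, a hydroxylase that Hif itself induces, did not pass in any comparison (differences of -0.66 to 0.24).

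Among the other Hif targets, Ddit4, an inhibitor of mTORC1 signalling, was higher in both joint tissues. It had 8.08, 8.45 and 8.76 in condyle, 7.50, 7.54 and 7.97 in fossa, and 6.10, 6.01 and 6.43 in whole body. The groups formed 3 steps without overlap. Ddit4 was 4.76-fold higher in condyle (2.25 ± 0.21, adjusted p = 0.00145) and 2.81-fold higher in fossa (1.49 ± 0.21, adjusted p = 0.00414) than in whole body. Condyle minus fossa barely passed (0.76 ± 0.21, adjusted p = 0.0489), was lost without any of 7 arrays (all but condyle array 1 and fossa array 3, adjusted p up to 0.128), and was 0.08 after quantile normalization.

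Bnip3, which promotes the removal of mitochondria, was the member lowest in fossa relative to whole body. Its levels were 9.76, 9.42 and 9.49 in condyle, 8.26, 8.05 and 7.44 in fossa, and 9.62, 9.30 and 9.55 in whole body. Condyle and whole body overlapped and fossa lay well below. Bnip3 was 2.98-fold lower in fossa than in whole body (-1.57 ± 0.22, adjusted p = 0.00359) and 3.12-fold higher in condyle than in fossa (1.64 ± 0.22, adjusted p = 0.00424). Both calls were kept after quantile normalization, at -1.03 (adjusted p = 0.0229) and 0.99 (adjusted p = 0.0467), though the call between condyle and fossa was lost when dim genes were also left out.

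Vegfa, the main growth factor for blood vessels, was above background on the condyle (4.08, 4.24 and 3.59) and fossa arrays (3.53, 3.67 and 3.22) and at background on the whole body arrays (2.46, 2.53 and 2.48). It was at least 1.72-fold higher in condyle (adjusted p = 0.00378) and at least 1.22-fold higher in fossa (adjusted p = 0.0111) than in whole body, against each array's own background limit. Both calls were lost when all arrays were floored at the highest limit of the 9 (0.45, adjusted p = 0.159, in condyle and 0.05, adjusted p = 1, in fossa). Condyle minus fossa, 0.50 ± 0.18, passed only without condyle array 3 (adjusted p = 0.107 with all arrays, 0.0314 without it). Mxi1, an antagonist of Myc, had 6.74, 6.58 and 7.05 in condyle, 5.16, 5.47 and 6.18 in fossa, and 4.34, 5.60 and 5.53 in whole body. Condyle lay above both others, and its 3.10-fold difference from whole body (1.63 ± 0.40, adjusted p = 0.0387) was lost without any 1 array other than fossa array 1 or 3 (adjusted p up to 0.116). Quantile normalization also ended that call (1.22, adjusted p = 0.0864). Condyle minus fossa for Mxi1, 1.19 ± 0.40, did not pass (adjusted p = 0.0817), except without whole body array 1 (adjusted p = 0.0338) or with the mean over its probe sets.

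On their brightest probe sets, Ndrg1, a stress-induced gene, the vasodilator peptide gene Adm and Ankrd37 did not pass in any comparison (differences of -0.35 to 0.17). A dimmer Ndrg1 probe set was higher in condyle than in whole body without overlap, but did not pass (0.97, adjusted p = 0.196 over all probe sets). Another, above background on only 1 fossa array, was called lower in condyle than in fossa (-0.71, adjusted p = 0.0164). Car9, a carbonic anhydrase gene often used as a hypoxia marker, was under the background limit on all 9 arrays, so it has no fold, although the fit called it lower in fossa (2.26 to 2.42) than in whole body (2.71 to 2.81) and higher in condyle (2.68 to 2.72) than in fossa. Across the joint tissues, the array with the highest signal for Slc2a1, Ndrg1 and Egln3 was condyle array 2 (11.86, 11.22 and 8.43) and fossa array 1 (11.57, 11.49 and 8.19). Those arrays also had the highest epithelial means of their tissues, 8.63 and 8.01, a coincidence seen after the values were known. Fossa array 2, with the lowest epithelial mean (4.64), had the lowest fossa signal for these 3 genes (10.10, 9.78 and 6.52) and for Slc2a3 (7.63). Fossa array 3 broke the pattern: its epithelial mean was 7.85, yet its Ndrg1 (10.07) and Egln3 (6.63) lay closer to array 2 than to array 1. Slc2a3 was highest on condyle array 3 (10.21) and fossa array 3 (10.44). The part of epithelium in these levels was not tested.

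**Figure D3:**
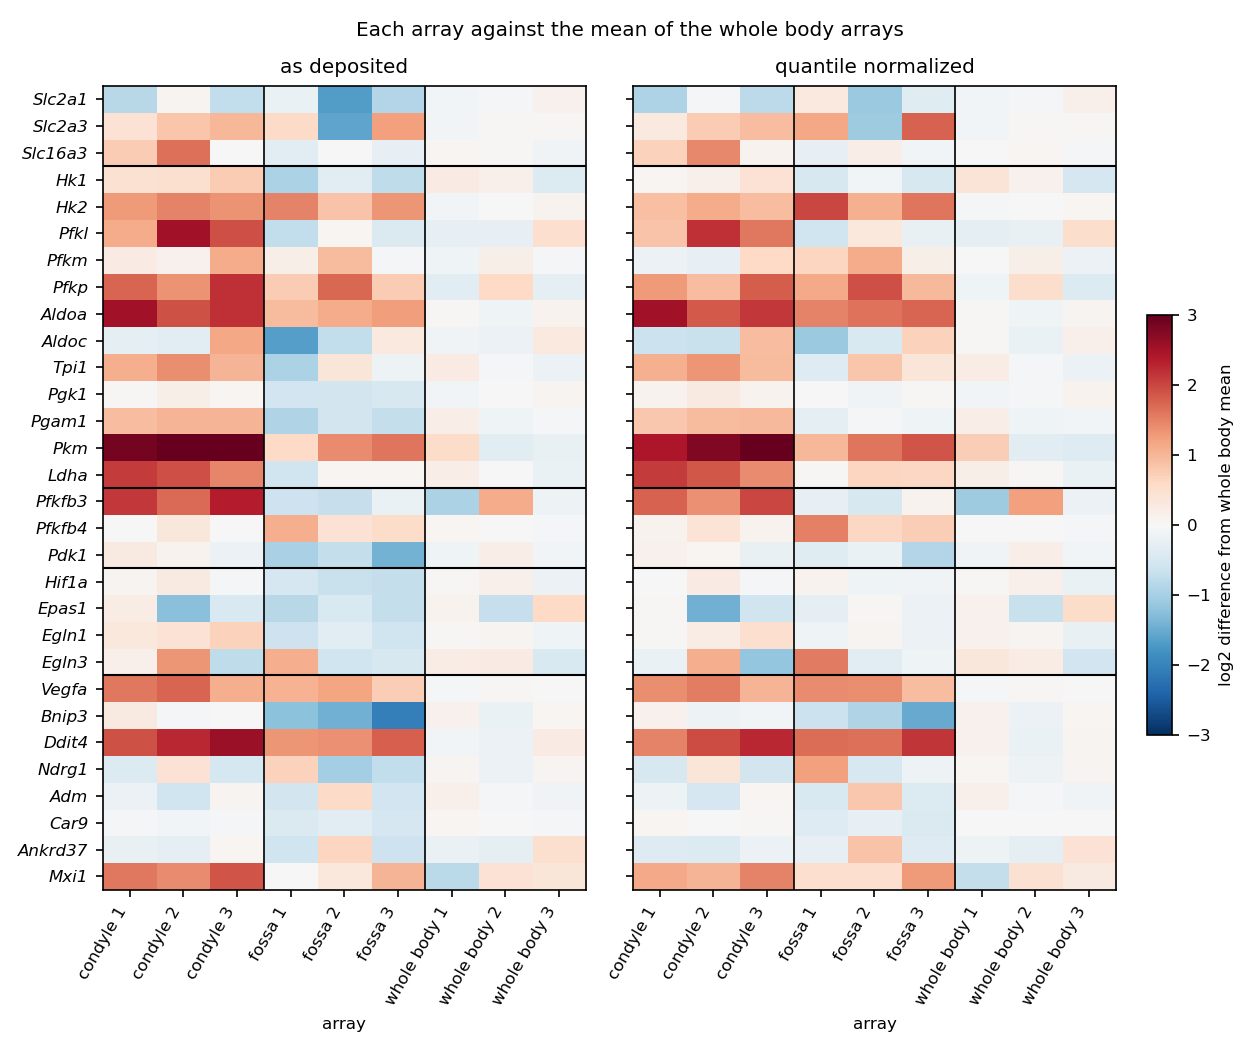
Log2 difference of each array from the mean of the 3 whole body arrays, for the measured members in the order of the classes, with deposited values at left and quantile normalized values at right. Red is higher and blue lower than whole body; the blue of fossa in Pgk1, Pgam1, Pdk1, Hif1a and Egln1 pales after quantile normalization, while Pkm, Aldoa, Ldha and Ddit4 stay red in condyle.

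Many calls between the joint tissues depended on the scaling. The deposited arrays have similar medians but different upper ranges: the 75th percentile of log2 intensity was 4.81 to 4.90 in condyle, 4.03 to 4.29 in fossa and 4.35 to 4.54 in whole body. After quantile normalization, 7 members were higher in condyle than in whole body and 0 lower (4.53% of all genes higher, 4.44% lower), 7 were higher and 2 lower in fossa than in whole body (8.03% and 9.02%), and 4 were higher and 0 lower in condyle than in fossa (3.8% and 2.67%). Among all genes called, the share that was higher moved accordingly: 70.9% as deposited and 50.5% after quantile normalization for condyle against whole body, 20.4% and 47.1% for fossa against whole body, and 88.8% and 58.8% for condyle against fossa.

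Relative to all genes, the glycolytic enzymes kept a positive median in condyle under both scalings. The median of the 12 enzymes exceeded that of all genes by 1.30 in condyle against whole body as deposited and by 1.05 after quantile normalization. For fossa against whole body the gap was -0.08 as deposited and 0.34 after quantile normalization. For condyle against fossa it was 0.96 as deposited and 0.55 after quantile normalization. With genes under background on all 9 arrays left out, the gaps as deposited were 1.13, 0.04 and 0.73 in that order. After quantile normalization they were then 1.02, 0.33 and 0.54. Calls that held under all 20 alternative settings were Pkm, Ldha, Pgam1, Aldoa, Hk2 and Ddit4 higher in condyle than in whole body. In fossa against whole body, Hk2, Aldoa and Ddit4 as higher and Bnip3 as lower did so, and in condyle against fossa Pgam1 and Ldha.

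**Figure D4:**
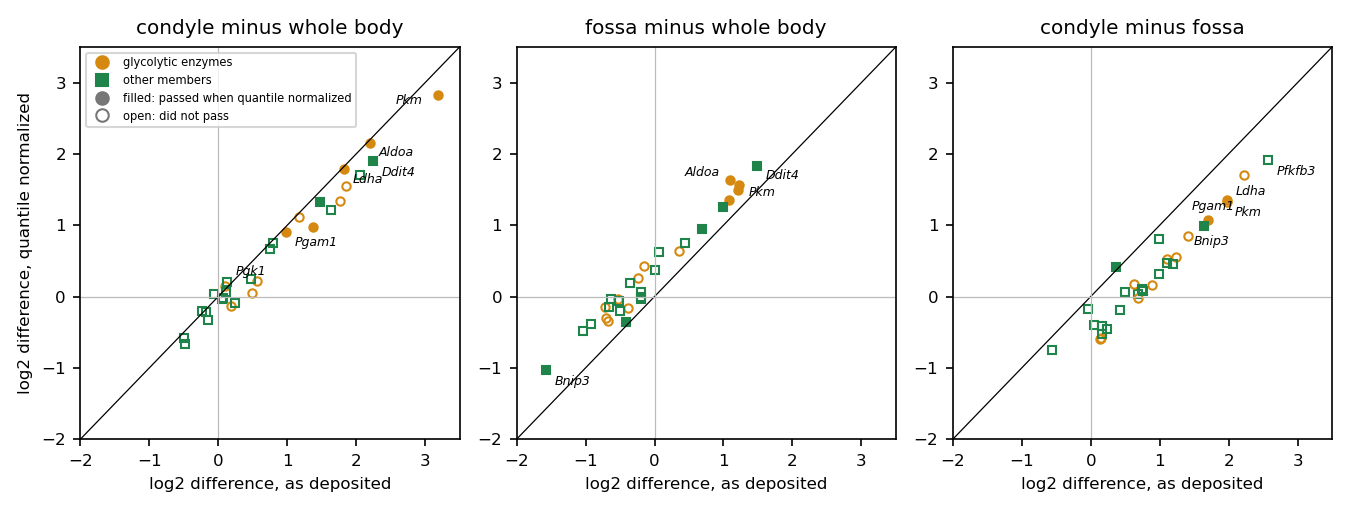
Log2 difference of each measured member as deposited (horizontal axis) against the same difference after quantile normalization (vertical axis), for the 3 comparisons; circles are glycolytic enzymes, squares the other members, and filled symbols passed after quantile normalization. Points lie near the diagonal for condyle against whole body, above it for fossa against whole body and below it for condyle against fossa.

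Other genes of these pathways were read from further lists, whose counts as deposited stand beside 9.34% of all genes higher and 3.84% lower in condyle than in whole body, 3.99% and 15.6% in fossa than in whole body, and 16.8% and 2.13% in condyle than in fossa. Their counts after quantile normalization stand beside 4.53% and 4.44%, 8.03% and 9.02%, and 3.8% and 2.67% of all genes, in the same order. Among 16 other regulators of the Hif pathway, 1 was higher and 1 lower in condyle than in whole body, 1 was higher and 6 lower in fossa than in whole body, and 7 were higher and 0 lower in condyle than in fossa. After quantile normalization, those counts were 1 and 1, 1 and 2, and 0 and 0. Hif1an, the asparaginyl hydroxylase that blocks Hif's activating domain, was higher in condyle than in whole body (1.37 ± 0.18, adjusted p = 0.00447), as it was in fossa (0.97 ± 0.18, adjusted p = 0.0104), and both calls were kept after quantile normalization (0.95, adjusted p = 0.0145, and 1.30, adjusted p = 0.00297). Eloc, which the list writes as Tceb1, went the other way. After quantile normalization it was lower than in whole body in condyle (-1.13, adjusted p = 0.0291) and in fossa (-1.20, adjusted p = 0.0149). Vhl, the subunit that recognises hydroxylated Hif, was at least 2.33-fold higher in condyle than in fossa (adjusted p = 0.0442), a call lost after quantile normalization (adjusted p = 0.287).

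Among 38 other hypoxia response genes, 8 were higher and 2 lower in condyle than in whole body, 2 were higher and 5 lower in fossa than in whole body, and 8 were higher and 0 lower in condyle than in fossa. After quantile normalization, the same comparisons gave 5 and 2, 5 and 4, and 0 and 0. Plod2, a collagen lysyl hydroxylase, was 9.82-fold higher in condyle than in whole body (3.30 ± 0.47, adjusted p = 0.00627), and Car12, a carbonic anhydrase, was at least 11.5-fold higher (adjusted p = 0.0043). Car12 was also at least 4.67-fold higher in fossa than in whole body (adjusted p = 0.0131). Igfbp1 and Tfrc went the other way. Igfbp1 had the largest difference of the list, at 2.27 to 2.28 in condyle, 2.30 to 2.32 in fossa and 6.83 to 8.76 in whole body. After quantile normalization it was lower in condyle (-5.52, adjusted p = 0.000324) and fossa (-5.53, adjusted p = 0.000269) than in whole body. Tfrc was lower there too (-2.15, adjusted p = 0.0303, and -2.33, adjusted p = 0.0147). Ero1a, an oxidase for protein folding that the list writes as Ero1l, was 3.68-fold higher in condyle than in fossa (1.88 ± 0.23, adjusted p = 0.00324), but 1.20 after quantile normalization (adjusted p = 0.0597).

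Of 18 other glycolytic isoforms, 1 was higher and 2 lower in condyle than in whole body, 0 were higher and 5 lower in fossa than in whole body, and 5 were higher and 0 lower in condyle than in fossa; quantile normalization gave 1 and 2, 2 and 4, and 3 and 0. Slc16a1, a transporter for lactate and pyruvate, was 3.57-fold lower in fossa than in whole body (-1.84 ± 0.27, adjusted p = 0.00459) and 3.36-fold higher in condyle than in fossa (1.75 ± 0.27, adjusted p = 0.00705), and both calls were kept after quantile normalization (-1.51, adjusted p = 0.00555, and 1.03, adjusted p = 0.0378). Pyruvate oxidation and the citric acid cycle, the route that burns pyruvate with oxygen, had 21 genes measured. In condyle 1 was higher and 2 lower than in whole body, and in fossa 1 was higher and 7 lower. Between the joint tissues, 6 were higher and 0 lower in condyle than in fossa. After quantile normalization, those counts were 1 and 4, 2 and 5, and 0 and 0. Sdhb, a succinate dehydrogenase subunit, was lower than in whole body in condyle (-1.05 ± 0.12, adjusted p = 0.00254) and in fossa (-1.64 ± 0.12, adjusted p = 0.000257). Idh3g, also of this list, went the other way. After quantile normalization it was higher than in whole body in condyle (0.59, adjusted p = 0.014) and in fossa (0.97, adjusted p = 0.0014). Idh3b was then higher in fossa too (1.03, adjusted p = 0.0217). The median of these genes was 0.02 in condyle against whole body, where that of the glycolytic enzymes was 1.27.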

How the data were processed

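The authors deposited linear intensities for 45101 probe sets on 9 arrays, a scale read from the values themselves (3.25 to 67158.9). The submitters' processing notes name limma without version or role. Background correction, normalization and probe summary are not given in the sources used here.

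Values were taken to log2 and kept as deposited. Symbols came from the platform annotation, each gene being read from its brightest single-gene probe set over all 9 arrays (19 members had several, 66 in all). Limma version 3.58.1 in R version 4.3.3 fitted the 3 groups together (lmFit, eBayes; 6 residual degrees of freedom, prior 1.12), with Benjamini-Hochberg adjustment over 18193 genes. The script was tested on simulated data. A gene at or under the background limit on all arrays of a group has only a bound there: "at least" folds set the brighter group's mean against the dimmer group's mean of, per array, the higher of limit and signal; the same was done where only some arrays of the dimmer group were above it. The number of arrays limits precision. No filter on low values was applied.

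All 34 members are named; from each further list, up to 3 genes per comparison qualified, by largest difference among called genes without overlap between groups, and some of these are given. Members and lists were chosen with earlier results of these data known. Alternatives were 3 other scalings, a common floor, 16 added before log2, dim genes left out, the mean over probe sets, another variance model, a replicate block and each array left out. Quantile normalization with probe sets chosen anew was added after seeing the data.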

Additional observations from a re-analysis of the deposited data

Results flagged for a closer look

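Pgam1 differed between the joint tissues in the direction of its difference from whole body: it was higher in condyle (0.98 ± 0.12) and lower in fossa (-0.72 ± 0.12). The direct comparison of condyle with fossa, which tests that difference, gave 1.70 ± 0.12 (log2, limma, adjusted p = 0.000573), with all 3 condyle arrays above and all 3 fossa arrays below the whole body arrays. After quantile normalization the condyle minus fossa difference was 1.07 (adjusted p = 0.00378), the condyle difference from whole body 0.91 (adjusted p = 0.00526) and the fossa difference from whole body -0.15 (adjusted p = 0.4).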

How the results depend on the processing

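Members higher in condyle than in whole body numbered 11 as deposited and 7 after quantile normalization, also with probe sets chosen anew (7). With 75th percentile centring 1 (Car9) was lower, where 39.3% of all genes were lower. Members lower in fossa than in whole body numbered 7 as deposited and 2 after quantile normalization (2 with probe sets chosen anew). With dim genes also left out 1 was lower (9.54% of the genes tested), and with 75th percentile centring 1 (7.59% of all genes). With a common floor, 3 instead of 5 were higher (1.8% of all genes). Members higher in condyle than in fossa numbered 15 as deposited and 4 after quantile normalization (4 with probe sets chosen anew). Quantile normalization with dim genes left out gave 2 (1.77% of the genes tested), and 75th percentile centring gave 6 (3.93% of all genes). With that centring 1 (Pfkfb4) was lower, where 35.3% of all genes were lower. It was also lower with median centring, where 3.11% of all genes were. The glycolytic median of 1.17 for condyle minus fossa was 0.54 in all 3 quantile settings and 0.5 with 75th percentile centring, which moved the median of all genes to -0.45 (from 0.21 as deposited) and the share of higher calls among all genes to 10%; for condyle against whole body that centring gave -0.43 and 17%, and for fossa against whole body 0.16 and 44.5%. Pgk1, condyle minus fossa, was -0.04 with 75th percentile centring. Car9, condyle minus fossa, was -0.3 with it and 0 with the common floor, as was Car9, fossa minus whole body (0). The causes were not tested.

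Leaving out 1 array gave 7 to 11 members higher and 0 lower for condyle against whole body (7 without whole body array 1), 4 to 6 higher and 6 to 8 lower for fossa against whole body, and 13 to 15 higher and 0 lower for condyle against fossa; of all genes, 5.38% to 10.3% were then higher in the first comparison, 2.57% to 3.75% higher and 10.3% to 14.7% lower in the second, and 10.4% to 16.7% higher in the third. Glycolytic medians ranged from 1.19 to 1.31, from -0.39 to 0.09 (positive without fossa array 1) and from 1.04 to 1.29 in those comparisons. With the replicate number as a block, 9 members were higher and 0 lower in condyle than in whole body, where 6.57% of all genes were higher and 2.72% lower. Fossa against whole body then gave 4 and 6 (2.98% and 12.3% of all genes), and condyle against fossa 15 and 0 (12.6% and 1.3%). The numbers share no known source: deviations of same-numbered arrays correlated at -0.44 to 0.15, and 4 of 9 arrays correlated best with their own number. Signal near background limits Car9, Pfkfb4, Slc16a3, Adm and Vegfa.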

Other observations

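Routes that branch from glycolysis were read from further lists. Beside the counts of both lists below, 9.34% of all genes were higher and 3.84% lower in condyle than in whole body. In fossa 3.99% were higher and 15.6% lower than in whole body. Of 7 pentose phosphate genes, 2 were higher and 0 lower in condyle than in whole body, and 2 higher and 1 lower in fossa than in whole body. Pgd, which makes NADPH, was higher in condyle (1.41 ± 0.16, adjusted p = 0.00266) and in fossa (0.58 ± 0.16, adjusted p = 0.0439), as was the transketolase gene Tkt (1.37 ± 0.15, adjusted p = 0.00219, and 0.80 ± 0.15, adjusted p = 0.00989). Both genes also passed after quantile normalization in both tissues (Pgd 1.39 and 1.09, Tkt 1.43 and 1.25). The list then had 2 higher and 1 lower in condyle than in whole body, where 4.53% of all genes were higher and 4.44% lower. Fossa had 2 higher and 0 lower (8.03% and 9.02% of all genes). The gene lower in condyle was Rpe (-1.43, adjusted p = 0.0402).

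Of 15 genes of gluconeogenesis and glycogen, 1 was higher and 3 lower in condyle than in whole body, and 0 higher and 6 lower in fossa than in whole body. Fbp1, the fructose bisphosphatase of liver, was at least 12.8-fold lower in condyle (adjusted p = 0.0017) and at least 8.64-fold lower in fossa (adjusted p = 0.00204). Liver markers were lower in the same arrays: of 11 liver genes, 6 were at background in condyle and 6 in fossa, and their part in this was not tested. Between the joint tissues, 4 of these 15 genes were higher and 0 lower in condyle than in fossa, where 16.8% of all genes were higher and 2.13% lower. Gys1, the glycogen synthase outside liver, was 3.04-fold higher in condyle than in fossa (1.60 ± 0.12, adjusted p = 0.000777) and passed after quantile normalization (0.87, adjusted p = 0.015).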
